A study of Rattus norvegicus with 69 samples.

Results

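Roux-en-Y gastric bypass (RYGB) was compared with sham surgery in 26 of the 69 liver libraries of the series, chosen by the group in their labels, of which 14 came from RYGB treated animals and 12 from sham controls. The animals were male Wistar rats made obese with a high-fat diet, which then underwent either operation and had free choice of a high-fat and a low-fat diet until livers were taken after an overnight fast. Batch A of the labels holds 11 RYGB and 7 sham libraries, and batch B holds 3 RYGB and 5 sham libraries, and the labels do not say what a batch is. All animals of both groups were diet-induced obese at the start, so neither group stands for a lean liver. The other 4 groups of the study, treated with liraglutide, PYY3-36, both or saline, are not compared here, but 55 libraries were fitted. Those groups entered the filter on low counts, the scaling and the estimates of the spread and of the batch term. The paper states that some animals given both drugs or saline were fed for a longer period. The labels do not say which libraries these are, and the part of the longer feeding in the batch term was not tested.

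RYGB leads food past most of the stomach and the upper small intestine, and it lowers body weight and liver fat. In the fasting liver, fatty acids from adipose tissue activate the nuclear receptor PPAR alpha, which drives genes of fatty acid oxidation. The liver is also the main source of circulating insulin-like growth factor 1, which it makes under the control of growth hormone and feeding. Sex-dependent secretion of growth hormone sets the level of several cytochromes P450 and urinary proteins in rats.

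Total counts were between 20710865 and 24132426 in RYGB and between 19846183 and 25424858 in sham libraries of batch A, and between 9110860 and 13941960 in RYGB and between 14052862 and 22236158 in sham libraries of batch B. The mitochondrial share of the counts was 0.593% to 1.502% in the 3 RYGB and 0.161% to 0.411% in the 5 sham libraries of batch B, and at most 0.147% in batch A. The first principal component (38.9% of the variance) separated the batches, and sham replicate 12 lay alone on the second (16.98%). Hepatocyte markers were abundant in all libraries, with a summed level of 56171 to 254885 CPM (counts scaled by edgeR to a common library size, with TMM factors) after RYGB and of 65080 to 174425 CPM after sham surgery. Nothing in the labels ties a replicate number to a cage or day, and each library is taken as 1 animal.

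Compared with sham controls, 206 genes were higher (1.25% of the 16508 tested) and 202 were lower (1.22%) in RYGB treated animals at an adjusted p under 0.05 in edgeR's quasi-likelihood test with Benjamini-Hochberg adjustment, or 408 in all (2.47%). These shares of all genes tested are the background for the counts of list members given below. Lists and members were chosen with earlier results of these data known, so a share above this background is no test. A gene past the threshold of 0.05 is said to have risen or fallen below. Log2 fold changes are given with an approximate standard error (SE). It is the absolute log2 fold change divided by the square root of the test's F statistic. Of the 408 genes, 330 code for proteins and 61 are annotated as long noncoding RNAs. The median log2 fold change of all genes tested was -0.01. Among the genes named here are Igfbp2, Reep6, Vnn1 and Fam35a, which were the 4 genes with all 14 RYGB libraries above all 12 sham libraries (0.0242% of the genes tested), and Mmd2 and Stac3, the 2 genes with all RYGB libraries below all sham libraries (0.0121%). In bulk tissue, fewer cells of a type and less mRNA per cell cannot be told apart.

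**Figure D1:**
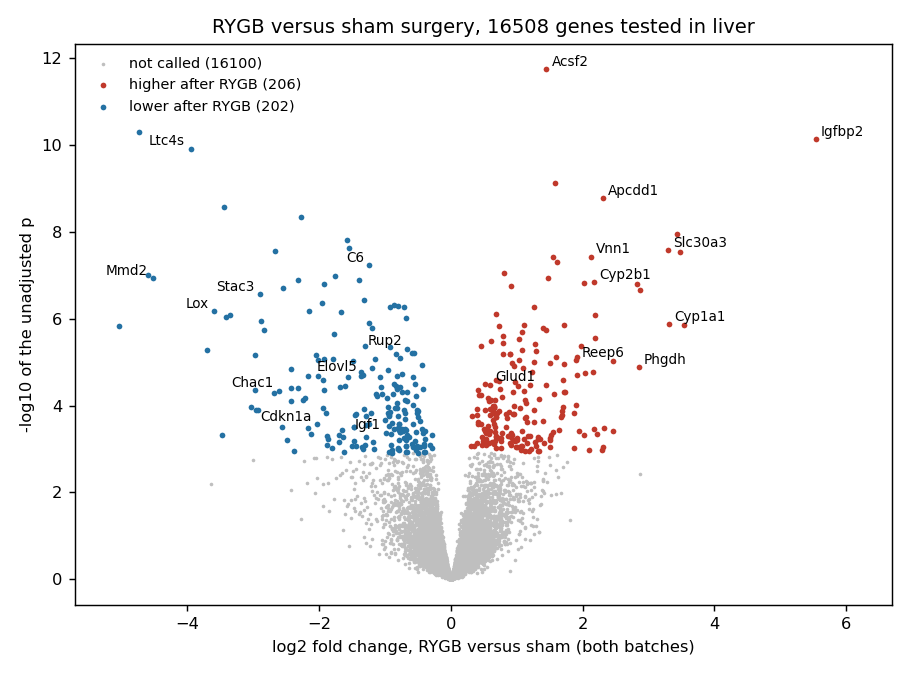
Each point is 1 of the 16508 genes tested, with its log2 fold change in RYGB versus sham on the x axis and -log10 of its unadjusted p on the y axis. Red points are the 206 genes that rose and blue points the 202 that fell at an adjusted p under 0.05, among them Igfbp2 at 5.53 and Ltc4s at -3.95.

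RYGB treated animals had lower mRNA of Igf1 and of Igfals, the subunit that keeps this growth factor in the blood in a long-lived complex, while Igfbp2, a binding protein, rose. Igf1 (gene ID 24482, Rnor_6.0 chromosome 7, 28412123 to 28491815) was at 442 to 1124 CPM after RYGB (median 686) and at 1071 to 4302 CPM after sham surgery (median 1377). All 14 RYGB libraries lay below the sham median, and the highest sham value came from sham replicate 12. Igf1 fell by 0.98 on the log2 scale (SE 0.26, adjusted p = 0.0244 in edgeR). Its adjusted p was 0.0566 without sham replicate 12, where the log2 fold change was -0.83, and the call was also lost without RYGB replicate 12, RYGB replicate 13 or sham replicate 5, with log2 fold changes from -1.05 to -0.83 over the 26 fits that each left out 1 library. Igfals was at 89.1 to 352 CPM after RYGB and at 187 to 471 CPM after sham surgery, with 1 RYGB library above the sham median, and fell by 0.83 (SE 0.16, adjusted p = 0.00133).

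Ghr, the growth hormone receptor, fell by 0.39 on the log2 scale (SE 0.11, adjusted p = 0.0471), a call that was lost in 14 of the 26 fits that each left out 1 library, with log2 fold changes between -0.42 and -0.34. Igfbp2 was at 17.5 to 398 CPM after RYGB and at 0.636 to 6.54 CPM after sham surgery and rose by 5.53 (SE 0.68, adjusted p = 4.05e-07). The 2 groups did not overlap for Igfbp2, and its log2 fold change was 5.002 in batch A and 6.74 in batch B. Socs2, a feedback inhibitor of growth hormone signalling, had a log2 fold change of -1.03 with an adjusted p of 0.487, and Lepr, the leptin receptor, one of 0.90 with an adjusted p of 0.0788. Of the 20 members of the growth hormone and IGF list, 1 rose and 3 fell, and the list had a median of -0.07 on the log2 scale.

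The genes of 3 secreted urinary proteins, which male rat liver makes in large amounts, were named after their values were seen. Rup2, a urinary protein (gene ID 619560, chromosome 8, 41657662 to 41661223), was at 2534 to 6258 CPM after RYGB (median 4706) and at 5609 to 10493 CPM after sham surgery (median 7724). A single RYGB library lay within the sham range, and none reached the sham median. Rup2 fell by 0.66 on the log2 scale (SE 0.13, adjusted p = 0.00111). Obp3 and Mup4, lipocalins of the major urinary protein family whose near-identical sequences share reads, fell by 0.70 (adjusted p = 0.0115) and 0.69 (adjusted p = 0.0139), and for both genes no RYGB library lay above the sham median. Cyp2c11, the main male-specific P450, was not called (log2 fold change 0.07, adjusted p = 0.957).

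A pair of transcripts known to be higher in females fell too, at low levels. Cyp2c12, a P450 found mainly in female rats, was at 4.69 to 35.7 CPM after RYGB and at 8.603 to 165 CPM after sham surgery and fell by 1.48 (SE 0.38, adjusted p = 0.0201). That call was lost without sham replicate 5 (log2 fold change -1.12, adjusted p = 0.126) and without sham replicate 12 (-1.17, adjusted p = 0.0753). A1bg, which is likewise higher in female rats, was at 0.0764 CPM at most after RYGB and at 0.0643 to 0.944 CPM after sham surgery, and it fell at an adjusted p of 0.000292. Serpina6, the corticosteroid-binding globulin of plasma, was at 113 to 1022 CPM after RYGB (median 387) and at 597 to 1958 CPM after sham surgery (median 760) and fell by 0.94 (SE 0.23, adjusted p = 0.0123). Dio1, the deiodinase that activates thyroid hormone, fell by 0.57 (adjusted p = 0.00908), and Car3, an abundant carbonic anhydrase, by 1.15 (adjusted p = 0.00154).

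Several genes of fatty acid use rose in RYGB treated animals. Of the 44 tested members of the list of fatty acid oxidation, ketogenesis and PPAR alpha targets, 7 rose and 1 fell (18.2% called, against 2.47% of all genes tested), with a list median of 0.18 on the log2 scale. The list was chosen with earlier results of these data known, so its share is no test. Among the genes that rose were the fatty acid omega-hydroxylases Cyp4a1, Cyp4a2 and Cyp4a3, which are encoded next to each other. The stretches of 250 bases before the starts of Cyp4a2 (chr5:134170909-134171158) and Cyp4a3 (chr5:134352237-134352486) are shown because both genes rose together and their copies are hard to tell apart by reads. They are from RefSeq's GRCr8 tables and both lie on the minus strand, and capitals mark AGGTCA, the core to which nuclear receptors such as PPAR alpha bind.
Cyp4a2: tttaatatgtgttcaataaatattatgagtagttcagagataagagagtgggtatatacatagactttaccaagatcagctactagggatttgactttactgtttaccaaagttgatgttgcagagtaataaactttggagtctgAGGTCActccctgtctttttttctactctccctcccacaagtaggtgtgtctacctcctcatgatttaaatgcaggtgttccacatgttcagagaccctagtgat
Cyp4a3: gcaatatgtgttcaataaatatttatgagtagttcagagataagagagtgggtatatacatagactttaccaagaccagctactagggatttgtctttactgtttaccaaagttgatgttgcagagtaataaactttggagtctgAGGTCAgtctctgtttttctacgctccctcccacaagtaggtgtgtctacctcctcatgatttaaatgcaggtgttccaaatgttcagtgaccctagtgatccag
Of 245 aligned bases 236 were identical. Each stretch held 1 AGGTCA, which 14.1% of all 33469 promoter stretches of this length held on either strand.

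Cyp4a2 (chromosome 5, 134196910 to 134207888 in Rnor_6.0, the build of the files) was at 191 to 914 CPM after RYGB (median 513) and at 43.6 to 550 CPM after sham surgery (median 112). All RYGB libraries lay above the sham median, and sham replicate 11 was the one sham library at 550 CPM. The gene rose by 1.64 (SE 0.43, adjusted p = 0.0225), but the adjusted p became 0.0542 once RYGB replicate 13 was left out. Cyp4a3 rose by 0.74 (SE 0.17, adjusted p = 0.00492) and Cyp4a1 by 1.21 (SE 0.32, adjusted p = 0.0265), the latter call being lost without RYGB replicate 12 or sham replicate 5 (log2 fold changes from 1.13 to 1.28 over the 26 fits). In batch A alone the 3 log2 fold changes were 2.09 for Cyp4a2, 0.75 for Cyp4a3 and 1.25 for Cyp4a1, and in batch B 1.24, 0.56 and 1.17. As the files divide reads that match several places, the values of Cyp4a2 and Cyp4a3 are not independent.

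Acsf2, an acyl-CoA synthetase of mitochondria (chromosome 10, 82284719 to 82326771), had the lowest p of the 408 genes. It was at 11.6 to 37.2 CPM after RYGB (median 14.9) and at 4.57 to 15.0 CPM after sham surgery (median 5.95), where sham replicate 12 was the one library above the lower end of the RYGB range. Acsf2 rose by 1.44 (SE 0.16, adjusted p = 2.98e-08). Acsm2a and Acsm5, which activate medium-chain fatty acids, rose by 2.03 (SE 0.43, adjusted p = 0.00261) and 1.70 (SE 0.41, adjusted p = 0.00966), each with all RYGB libraries above the sham median. Vnn1, a pantetheinase that is a known PPAR alpha target, was at 40.2 to 93.3 CPM after RYGB and at 6.396 to 39.3 CPM after sham surgery, so that the groups did not overlap. The carnitine genes Crat and Slc22a5, which encode an acetyltransferase and a carnitine importer, rose by 1.15 (adjusted p = 0.0344) and 0.67 (adjusted p = 0.0235). The call of Crat was lost in 8 of the 26 fits that left out 1 library, with log2 fold changes from 0.91 to 1.30, and that of Slc22a5 without RYGB replicate 12 or sham replicate 3, with log2 fold changes from 0.55 to 0.74.

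Cpt1a, which controls entry of long-chain fatty acids into mitochondria and is the rate-limiting step of their oxidation, was not called and stood at -0.07 on the log2 scale (adjusted p = 0.961). Bdh1, which interconverts the ketone bodies, fell by 0.42 (SE 0.11, adjusted p = 0.0240), a call lost without RYGB replicate 13 or sham replicate 4 (log2 fold changes from -0.46 to -0.37). Of the nuclear-encoded subunits of the respiratory chain, 0 of 72 were called by edgeR, and the median log2 fold change of that list was 0.02.

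Of 26 tested members of the list of fatty acid synthesis and desaturation 3 rose (Lpin1, Lpin2 and Acss2) and 1 fell (Elovl5), or 15.4%, and the list median was 0.08. The list holds Lpin1 and Lpin2 although their enzymes neither make nor desaturate fatty acids. Of 30 genes of lipid droplets and fat uptake 2 rose (Pnpla2 and Cidea) and 0 fell, or 6.67%, with a median of -0.01 and 14 positive values. Lpin2 and Lpin1, phosphatidate phosphatases that form diacylglycerol, rose by 1.11 (SE 0.20, adjusted p = 0.000427) and 1.26 (SE 0.30, adjusted p = 0.0104). Lpin2 was at 74.0 to 301 CPM after RYGB and at 36.3 to 102 CPM after sham surgery, with all RYGB libraries above the sham median. Lpin1 was at 571 CPM in RYGB replicate 7, and without that library the log2 fold change was 0.78 (adjusted p = 0.0559). Pnpla2, the lipase that starts breakdown of stored triglyceride, rose by 0.90 (SE 0.18, adjusted p = 0.00133), though part of its reads may fall to a near-identical locus of the annotation. Ppargc1a, a coactivator induced by fasting, was at 3.004 to 18.98 CPM after RYGB and at 1.43 to 5.42 CPM after sham surgery and rose by 1.44 (SE 0.32, adjusted p = 0.00423).

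Elovl5, the elongase of polyunsaturated fatty acids (chromosome 8, 85220941 to 85287449), was at 46.2 to 165 CPM after RYGB (median 98.0) and at 111 to 1184 CPM after sham surgery (median 253). No RYGB library reached the sham median, and the value of 1184 CPM was that of sham replicate 12. Elovl5 fell by 1.33 (SE 0.28, adjusted p = 0.00281), and by 1.13 without sham replicate 12. Apoa5, a plasma activator of lipoprotein lipase, fell by 0.56 (SE 0.11, adjusted p = 0.00130). Fasn, the fatty acid synthase, had a log2 fold change of 1.48 with an adjusted p of 0.0571, and its RYGB range of 19.2 to 559 CPM enclosed the sham range of 23.0 to 142 CPM. Plin2, a coat protein of lipid droplets, was at 24.7 to 123 CPM after RYGB and at 37.7 to 153 CPM after sham surgery, with an adjusted p of 0.295.

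**Figure D2:**
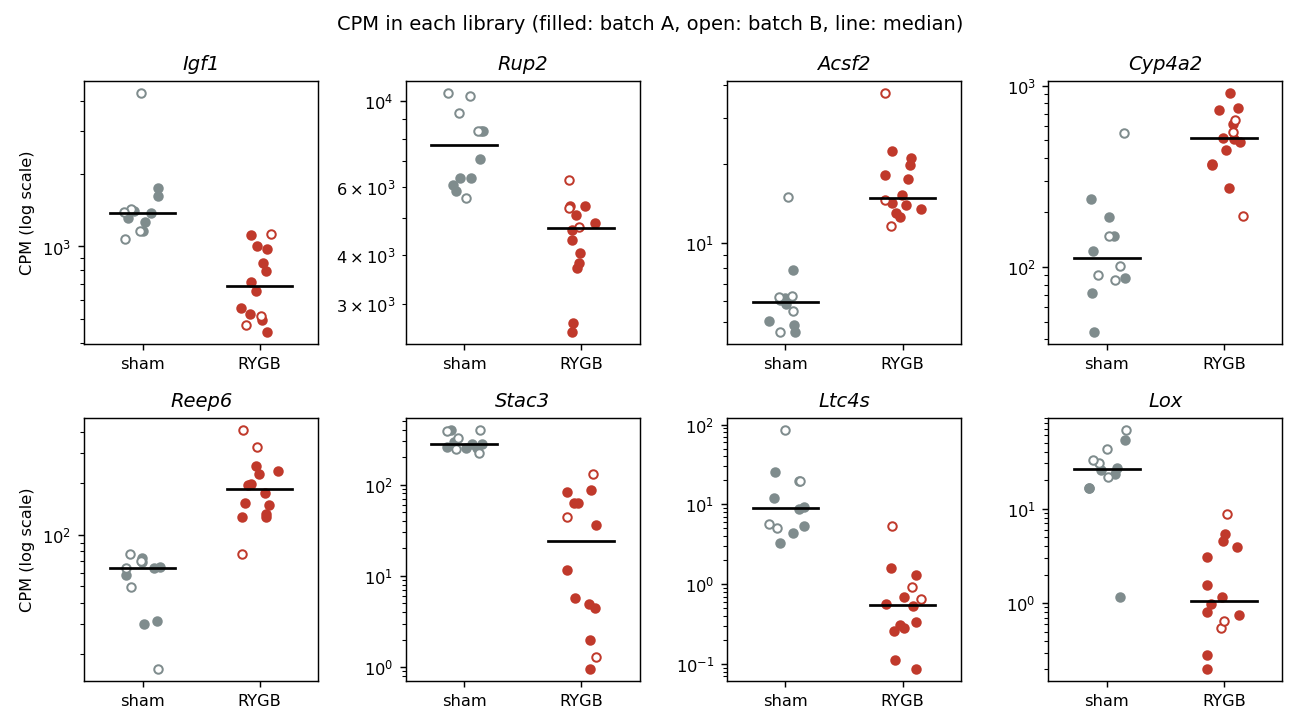
The level of 8 genes in each library is drawn in CPM on a log scale, with sham (grey) on the left and RYGB (red) on the right, filled points for batch A, open points for batch B and a line at the median of each group. Reep6 and Stac3 do not overlap between the groups, and single sham libraries of Igf1, Acsf2, Cyp4a2 and Lox lie away from the other sham libraries.

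In carbohydrate and amino acid metabolism few genes were called. Of the 29 members of the list of insulin signalling, gluconeogenesis and glycogen, 2 rose (Ppargc1a and Gys2) and 0 fell, with a median of 0.13. Pck1 and G6pc, the gluconeogenic enzymes at both ends of the pathway, had log2 fold changes of 0.19 (adjusted p = 0.794) and -0.32 (adjusted p = 0.885). Gpi, the phosphoglucose isomerase, rose by 0.64 (SE 0.16, adjusted p = 0.0150), and all RYGB libraries lay above the sham median.

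Glud1, the glutamate dehydrogenase that releases ammonia for urea synthesis, was at 629 to 1277 CPM after RYGB (median 961) and at 397 to 785 CPM after sham surgery (median 635). It rose by 0.59 (SE 0.13, adjusted p = 0.00423), with 11 of 14 RYGB libraries above the highest sham library. It was 1 of 2 members that rose among 56 in the list of the urea cycle and amino acid breakdown, where 0 fell and the median was -0.03, so that 3.57% were called, near the 2.47% of all genes. Phgdh, the first enzyme of serine synthesis, rose by 2.85 (SE 0.59, adjusted p = 0.00214) and Asns, the asparagine synthetase, by 1.69 (SE 0.42, adjusted p = 0.0123), but both were below 25 CPM in all libraries and the highest value of both was that of RYGB replicate 13. Without that library the values were 2.19 (adjusted p = 0.0373) for Phgdh, which was at 3.44 without sham replicate 11, and 1.30 (adjusted p = 0.0986) for Asns. Chac1, which degrades glutathione and belongs to the same ATF4-driven stress response, fell by 2.60 (SE 0.58, adjusted p = 0.00509), with a value of -1.86 without sham replicate 1 (adjusted p = 0.0852).

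Enzymes of foreign compounds and hormones changed in both directions. Of the 40 tested P450s of families 1 to 3 and their receptors, 5 rose and 2 fell, with a median of 0.08. Cyp1a2, which metabolizes caffeine and aromatic amines, was at 374 to 2064 CPM after RYGB (median 1426) and at 79.5 to 994 CPM after sham surgery (median 516). In 10 of 14 RYGB libraries Cyp1a2 was above all sham libraries, and it rose by 1.14 (SE 0.27, adjusted p = 0.00828). Cyp1a1, its relative under the aryl hydrocarbon receptor (chromosome 8, 62472087 to 62478122), rose by 3.30 (SE 0.60, adjusted p = 0.000427). It was at 0.0 to 47.2 CPM after RYGB (median 2.72) and at 0.0 to 1.36 CPM after sham surgery, so that the ranges overlapped. RYGB replicate 7 was at 47.2 CPM and no other RYGB library was above 8.11 CPM, and without replicate 7 the log2 fold change of Cyp1a1 was 2.47 (adjusted p = 0.00224). Nr1i3, the receptor CAR that controls the Cyp2b genes, rose by 1.07 (SE 0.30, adjusted p = 0.0384), a call lost in 14 of the 26 fits without 1 library (log2 fold changes from 0.96 to 1.23). Cyp2c22 fell by 1.04 (SE 0.24, adjusted p = 0.00575).

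Sult2b1, a sulfotransferase of sterols, rose by 1.40 (SE 0.26, adjusted p = 0.000464) and Ugt2b1, a glucuronosyltransferase, by 1.56 (SE 0.36, adjusted p = 0.00568). They were the 2 genes called among 33 tested members of the list of sulfotransferases, carboxylesterases and UGT2 enzymes, whose median was -0.21. Aldh1a1, a retinaldehyde dehydrogenase, was at 220 to 468 CPM after RYGB (median 287) and at 65.4 to 306 CPM after sham surgery (median 120) and rose by 1.08 (SE 0.29, adjusted p = 0.0230). It was the one gene called among 30 of retinoid metabolism (3.33%, near the 2.47% of all genes), and its adjusted p was 0.0535 without sham replicate 5. Mgst1, a glutathione transferase of membranes, was at 1804 to 2458 CPM after RYGB and at 2356 to 4578 CPM after sham surgery, so that 13 of 14 RYGB libraries lay below all sham libraries. It fell by 0.43 (SE 0.11, adjusted p = 0.0211), and the adjusted p was 0.0727 without sham replicate 4. Of 48 genes of glutathione and NRF2 defence, 0 rose and 2 fell (4.17%), also near that share.

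In bile acid metabolism, 1 of 27 tested genes rose and 1 fell. Abcc3, which exports bile acids and glucuronides to the blood, rose by 0.86 (SE 0.23, adjusted p = 0.0270), a call lost in 5 of the 26 fits without 1 library (log2 fold changes from 0.80 to 0.96). Cyp7b1, the oxysterol hydroxylase of the alternative pathway, fell by 1.70 (SE 0.47, adjusted p = 0.0326), with a value of -1.22 without sham replicate 12 (adjusted p = 0.110), and its call was lost in 8 such fits. Cyp7a1, the rate-limiting enzyme of the classical pathway, was at 16.3 to 252 CPM after RYGB and at 20.5 to 234 CPM after sham surgery, ranges that nearly coincided (adjusted p = 0.965). Cyp8b1, which directs synthesis to cholic acid, stood at 0.13 on the log2 scale (adjusted p = 0.933).

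Some of the largest falls were in genes with little known part in liver metabolism. Stac3 (chromosome 7, 70807427 to 70815271), known from coupling of excitation and contraction in muscle, was at 0.959 to 131 CPM after RYGB (median 23.9) and at 220 to 399 CPM after sham surgery (median 279). Every RYGB library was below every sham library, and the RYGB libraries spread far more widely than the sham libraries. Stac3 fell by 2.89 (SE 0.49, adjusted p = 0.000136), and its values were -3.13 in batch A and -2.42 in batch B. Mmd2, a membrane protein of the progestin and adiponectin receptor family, was at 1.04 CPM at most after RYGB and at 2.30 to 14.4 CPM after sham surgery and fell by 4.51 (SE 0.74, adjusted p = 8.35e-05). Gimd1 fell by 2.42 (SE 0.51, adjusted p = 0.00230) and Hsd11b2, which inactivates corticosterone, by 1.92 (SE 0.32, adjusted p = 9.08e-05). Fkbp5, a co-chaperone induced by glucocorticoids, rose by 1.08 (SE 0.21, adjusted p = 0.00114).

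Ltc4s, which joins leukotriene A4 to glutathione (chromosome 10, 35736486 to 35743088), was at 0.0866 to 5.37 CPM after RYGB (median 0.543) and at 3.27 to 86.4 CPM after sham surgery (median 9.08). One RYGB library, of batch B, reached into the sham range, and the highest sham value was that of sham replicate 8. Ltc4s fell by 3.95 (SE 0.49, adjusted p = 5.01e-07). Ephx2, the soluble epoxide hydrolase, rose by 0.69 (SE 0.19, adjusted p = 0.0265), a call lost in 6 of the 26 fits without 1 library (log2 fold changes from 0.62 to 0.76). The other 26 of the 28 tested enzymes of eicosanoid metabolism were not called, and the list median was 0.11.

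Among matrix genes 2 of 51 fell and 0 rose (3.92% called, near the 2.47% of all genes tested), with a list median of 0.05. Lox, the lysyl oxidase that cross-links collagen (chromosome 18, 47500320 to 47577819), was at 0.201 to 8.71 CPM after RYGB (median 1.06) and at 1.17 to 68.3 CPM after sham surgery (median 26.04). A single sham library, of batch A, lay within the RYGB range, and the other 11 lay above it. Lox fell by 3.60 (SE 0.64, adjusted p = 0.000262). Mmp12, an elastase of macrophages, was at 0.125 to 0.845 CPM after RYGB and at 0.649 to 6.29 CPM after sham surgery and fell by 2.04 (SE 0.41, adjusted p = 0.00137).

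A few genes of the immune system fell. Of 37 tested chemokines, cytokines and receptors, 3 fell and 0 rose, and the list median was -0.14 on the log2 scale. Cxcl12, which retains leukocytes and haematopoietic cells in tissues, was at 69.5 to 328 CPM after RYGB (median 176) and at 190 to 598 CPM after sham surgery (median 325) and fell by 0.88 (SE 0.20, adjusted p = 0.00578). Ccl22, which attracts regulatory and type 2 helper T cells, fell by 2.22 (SE 0.51, adjusted p = 0.00658), with -1.63 without sham replicate 11 (adjusted p = 0.0320). It was at very low levels, with 0.374 CPM at most after RYGB and 6.33 CPM at most after sham surgery. Ccl9 fell by 0.49 (SE 0.12, adjusted p = 0.0129). Ubd, a ubiquitin-like modifier induced by inflammatory cytokines, was at 14.8 to 67.5 CPM after RYGB (median 30.2) and at 21.7 to 290 CPM after sham surgery (median 94.3), and fell by 1.30 (SE 0.25, adjusted p = 0.000989). C6, a part of the membrane attack complex, fell by 1.23 (SE 0.20, adjusted p = 5.33e-05) and was the one gene called among 46 of complement and coagulation (2.17%, near the share of all genes). Of 41 interferon-stimulated genes and 31 acute phase genes, 0 were called in edgeR, with list medians of -0.01 and -0.03.

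Of the 6 tested genes whose symbols begin with Mcpt, which encode granule proteases of mast cells and basophils, 4 fell at very low levels. Mcpt2 and Mcpt9 were not called, with log2 fold changes of -0.79 (adjusted p = 0.554) and -0.50 (adjusted p = 0.428). Mcpt8 and Mcpt10 (chromosome 15, 34691255 to 34694209 and 34644471 to 34647497) were at 0.728 CPM at most and 0.637 CPM at most after RYGB and reached 2.19 and 2.26 CPM after sham surgery. Mcpt8 fell by 1.31 (SE 0.23, adjusted p = 0.000181) and Mcpt10 fell by 1.39 (SE 0.23, adjusted p = 8.39e-05), while of their neighbours Mcpt8l2 fell by 1.14 (adjusted p = 0.00578) and Mcpt8l3 fell by 0.95 (adjusted p = 0.0116). Genes of this cluster resemble one another and divide reads, so the 4 values are not independent.

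Cell type markers were measured beside these results. Of the 12 marker lists, 10 had no called member in edgeR. The 7 tested markers of blood and erythroid cells all had negative log2 fold changes (median -0.76), with a summed level of 20.2 to 476 CPM after RYGB and of 56.5 to 647 CPM after sham surgery. Of 14 markers of Kupffer cells and macrophages 13 were positive (median 0.27, summed level 314 to 940 CPM after RYGB and 269 to 686 CPM after sham surgery), and of 10 tested markers of T and NK cells 8 were negative (median -0.26, summed level 18.1 to 55.8 CPM and 22.7 to 56.0 CPM). Cidea among adipocyte markers and Cela1 among those of the exocrine pancreas rose, by 1.54 and 0.90, but only 2 markers of either list passed the filter on low counts. The part of blood and immune cells in the falls of Cxcl12, Ccl22, Ubd and the proteases was not tested.

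Regulators of growth arrest and the clock were partly lower and partly higher. Cdkn1a, the cell cycle inhibitor p21 (chromosome 20, 6348422 to 6358864), was at 1.13 to 10.6 CPM after RYGB (median 3.52) and at 2.79 to 38.5 CPM after sham surgery (median 14.2) and fell by 2.02 (SE 0.52, adjusted p = 0.0176). All RYGB libraries were below the sham median, and without sham replicate 6 the adjusted p was 0.0509. Phlda3, a p53 target that restrains Akt, fell by 1.08 (SE 0.23, adjusted p = 0.00309). Of the 35 tested p53 targets and growth arrest genes 2 fell, Cdkn1a and Phlda3, and 2 rose, Gadd45b and Plk3. Cell cycle and replication genes had 0 of 36 called in edgeR, although 32 of the 36 log2 fold changes were negative (median -0.31, against 49.1% positive values over all genes tested). Of 25 clock genes Ciart and Csnk1e rose, by 1.87 (adjusted p = 0.0403) and 0.59 (adjusted p = 0.0343), calls that were lost in 12 and 10 of the 26 fits without 1 library (log2 fold changes from 1.65 to 2.06 and from 0.55 to 0.64).

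Hormones and other products that the liver secretes included 4 genes that fell and 0 that rose among 29 tested. Inhbc, which encodes activin C, was at 35.3 to 77.8 CPM after RYGB (median 54.2) and at 44.3 to 153 CPM after sham surgery (median 104). No RYGB library exceeded the sham median, and the lowest sham values were those of sham replicate 7 in batch A and sham replicate 12 in batch B. Inhbc fell by 0.87 (SE 0.19, adjusted p = 0.00413). Agt, the precursor of angiotensin, fell by 0.68 (SE 0.19, adjusted p = 0.0313), a call lost in 5 of the 26 fits without 1 library, among them that without sham replicate 12 (log2 fold change -0.53, adjusted p = 0.0808). Apln, the ligand of the apelin receptor and not in that list, was at 0.405 CPM at most after RYGB and at 0.212 to 2.34 CPM after sham surgery and fell by 2.67 (SE 0.41, adjusted p = 3.38e-05).

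Other genes that rose belong to Wnt signalling and to transport. Of 42 genes of liver zonation and Wnt signalling 5 rose and 1 fell, with a list median of 0.26, and 2 of the 5 (Cyp1a2 and Nr1i3) are also among the P450s and their receptors. Apcdd1, a target and inhibitor of Wnt signalling (chromosome 18, 58270398 to 58300982), was at 2.34 to 24.7 CPM after RYGB (median 12.3) and at 0.283 to 3.76 CPM after sham surgery (median 1.98). In 12 of 14 RYGB libraries it was above all sham libraries, and it rose by 2.31 (SE 0.32, adjusted p = 4.58e-06). Slc30a3, a zinc transporter (chromosome 6, 26629752 to 26650106), rose by 3.30 (SE 0.50, adjusted p = 3.38e-05), from a sham range of 0.0887 to 0.772 CPM to an RYGB range of 0.561 to 20.4 CPM. The highest value of Slc30a3 was that of RYGB replicate 13, and without it the log2 fold change was 2.58 (adjusted p = 0.000246). Upp2, which splits uridine, was at 20.99 to 112 CPM after RYGB and at 0.991 to 40.5 CPM after sham surgery and rose by 1.91 (SE 0.41, adjusted p = 0.00281). Aldh1b1, a mitochondrial aldehyde dehydrogenase, fell by 1.29 (SE 0.32, adjusted p = 0.0129), but the adjusted p became 0.0503 once sham replicate 1 was left out.

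Reep6, which shapes endoplasmic reticulum membranes (chromosome 7, 12240059 to 12246814), was at 77.7 to 412 CPM after RYGB (median 185) and at 16.4 to 76.8 CPM after sham surgery (median 64.0). Its groups did not overlap, although the lowest RYGB and the highest sham library were close. Reep6 rose by 1.90 (SE 0.39, adjusted p = 0.00161). H19, an imprinted noncoding RNA of fetal liver, rose by 2.19 (SE 0.42, adjusted p = 0.000725), Inmt, a methyltransferase, by 1.87 (SE 0.46, adjusted p = 0.0114) and Tex36 by 2.03 (SE 0.33, adjusted p = 9.08e-05). Sntb1, a syntrophin, rose by 2.23 (SE 0.59, adjusted p = 0.0252) and its adjusted p was 0.0511 without sham replicate 2 (log2 fold change 2.14). Sntb1 was at 2.96 to 23.8 CPM after RYGB and at 0.742 to 23.3 CPM after sham surgery, where sham replicates 9 and 12 were far above the rest.

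**Figure D3:**
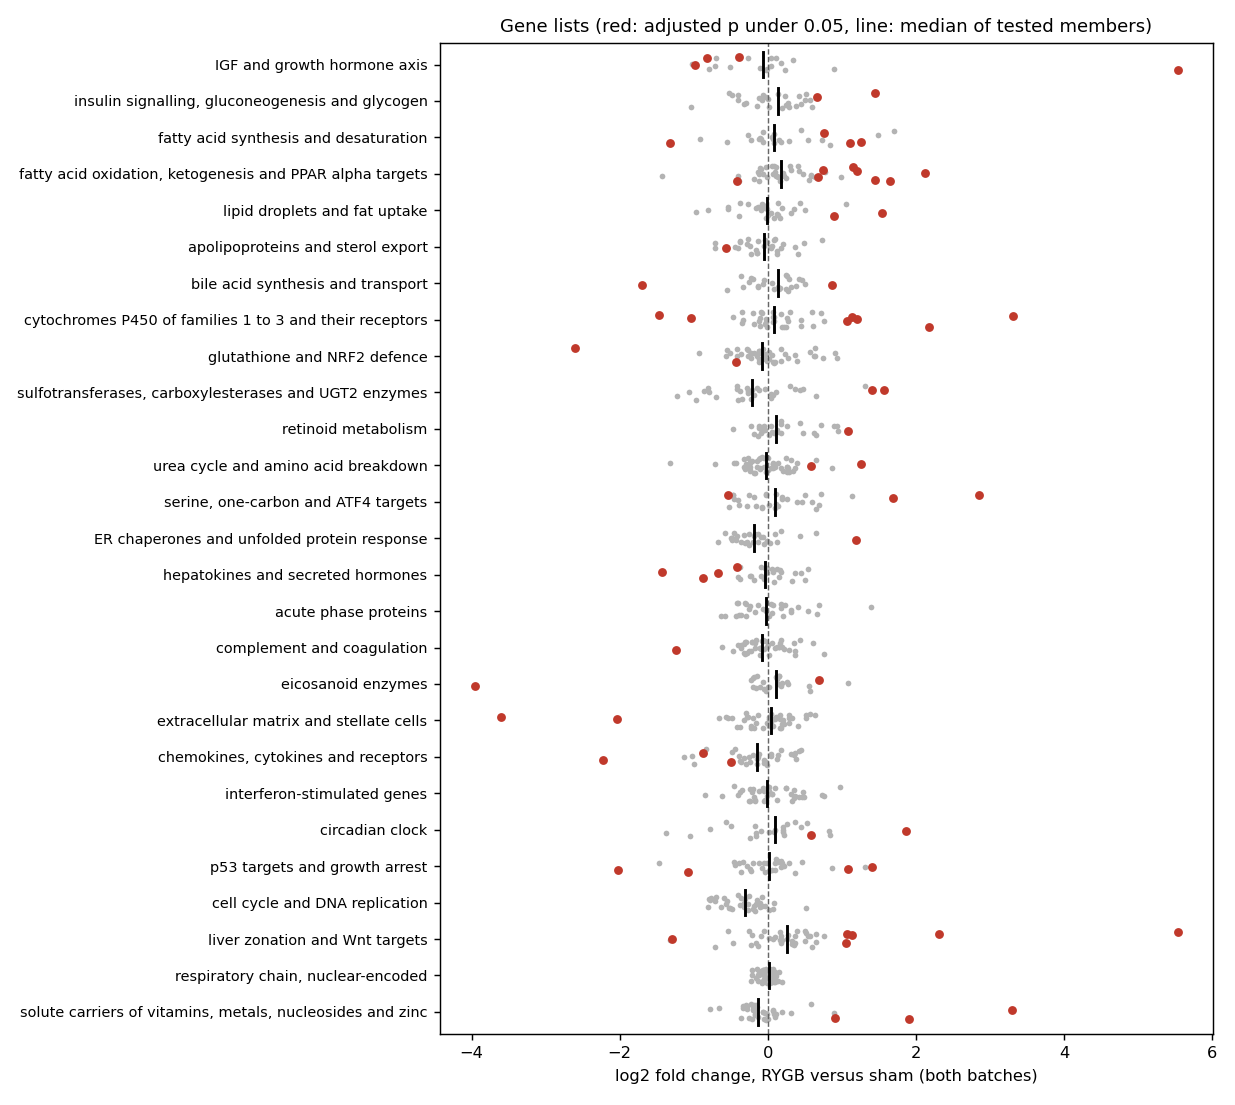
Each row is 1 of 27 gene lists and each point a tested member at its log2 fold change in RYGB versus sham, red where the adjusted p was under 0.05, with a black line at the list median. In 23 lists at least 1 member was called, and the median of the lists stays between -0.31 (cell cycle and DNA replication) and 0.26 (liver zonation and Wnt targets).

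Batch A was next taken alone, to see which of these genes do not need batch B. In its 18 libraries 292 genes were higher (1.92% of 15209 tested) and 314 lower (2.06%), or 606 in all (3.98%). The libraries of batch A are also part of the fit of both batches, so that the overlap is given as counts only. Before adjustment 2930 genes (19.3%) had a p under 0.05 in batch A, and 7991 (52.5%) had a positive log2 fold change. The 2 fits called 248 genes in common, which was 60.8% of the 408 genes of both batches and 40.9% of the 606 of batch A, all 248 in the same direction. Of the other 160 genes called in both batches, 44 did not pass the filter on low counts in batch A and 116 did, and all 116 had the same direction there, 108 of them with an unadjusted p under 0.05. Of the 358 genes called in batch A and not in the fit of both batches, 357 had the same direction in that fit and 214 an unadjusted p under 0.05 there. That fit holds the batch A libraries, so the shared direction is no separate support. In batch B alone, 267 of the 347 tested there (76.9%) had the same direction, against 62.8% of all genes tested in both.

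When a change of 1 or more on the log2 scale was also required, 206 genes passed in both batches (1.25%), of which 104 were higher (0.63%), and 180 in batch A (1.18%), and 116 passed in both fits. Over the 364 genes called in both batches and tested in batch A, the median absolute log2 fold change was 0.94 in both batches and 0.91 in batch A. Over the 14165 genes tested in all 3 fits the median SE was 0.19 in both batches, 0.13 in batch A and 0.38 in batch B.

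Genes called in batch A but not in the fit of both batches included Fabp12, Fbp2, Apoa4, Abca8, Smpd3, Fmo5, Nceh1 and Cdo1. Apoa4, an apolipoprotein of lipid-rich particles, stood at -0.67 on the log2 scale in batch A (adjusted p = 0.00249) and at 0.12 in batch B, and Fabp12, a fatty acid binding protein, at -0.84 (adjusted p = 0.00132) and 0.41. Cdo1, the cysteine dioxygenase, stood at -0.50 in batch A (adjusted p = 0.00673) and at -1.26 in batch B, where sham replicate 12 was at 6169 CPM and the other 4 sham libraries at 1434 to 2018 CPM. Fmo5 and Fbp2, a monooxygenase and a fructose bisphosphatase, had values of 1.59 (adjusted p = 0.00378) and 1.38 (adjusted p = 0.00236) in batch A and of 0.92 and 0.98 in batch B. Abca8, a lipid transporter, had values of 1.04 (adjusted p = 0.00249) and 1.28, while Smpd3 and Nceh1, a sphingomyelinase and a cholesterol ester hydrolase, had 1.06 (adjusted p = 0.00354) and 1.05 (adjusted p = 0.00394) in batch A and at most 0.05 in batch B. Genes called in the fit of both batches but not in batch A included Bmf, a killer protein of the BCL2 family (-0.64 in batch A at adjusted p = 0.0728, -1.10 in batch B), and Slc34a2, a phosphate transporter (-1.54 with 0.0529, -2.81 in batch B).

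Batches A and B share no library, so batch B shows the direction of the genes called in batch A in other animals. Of 581 genes called in batch A and tested in batch B, 498 (85.7%) had the same direction in batch B, against 8902 of 14165 (62.8%) over all genes tested in both. The share was 81.2% (221 of 272) for genes higher and 89.6% (277 of 309) for genes lower in batch A. An unadjusted p under 0.05 in the same direction was found in batch B for 125 of the 581 genes (21.5%), against 5.26% of all genes with such a p in either direction. The median absolute log2 fold change of the 581 genes was 0.64 in batch A, and the median in batch B along the direction of batch A was 0.49. Of the genes called in both fits 231 of 234 (98.7%) had the same direction in batch B, a share that the fit of both batches, which holds the batch B libraries, had helped to set.

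Batch B alone called 0 (0.0%) of 14523 genes in edgeR, with 790 (5.44%) at an unadjusted p under 0.05 and a lowest adjusted p of 0.256, while DESeq2 called 104 and limma-voom 20. In simulated counts of the same 8 libraries the test found 0% of genes made to differ 2-fold, 64% at 4-fold and 98% at 8-fold. The simulated counts took their spread from a trend over all genes, without a library that stands apart as sham replicate 12 does. They therefore cannot say which changes were missed in the real libraries, where 0 genes were called in edgeR. The RYGB libraries of batch B had a higher mitochondrial share than its sham libraries and fewer counts (ranges above), and the part of either in the batch B values was not tested.

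**Figure D4:**
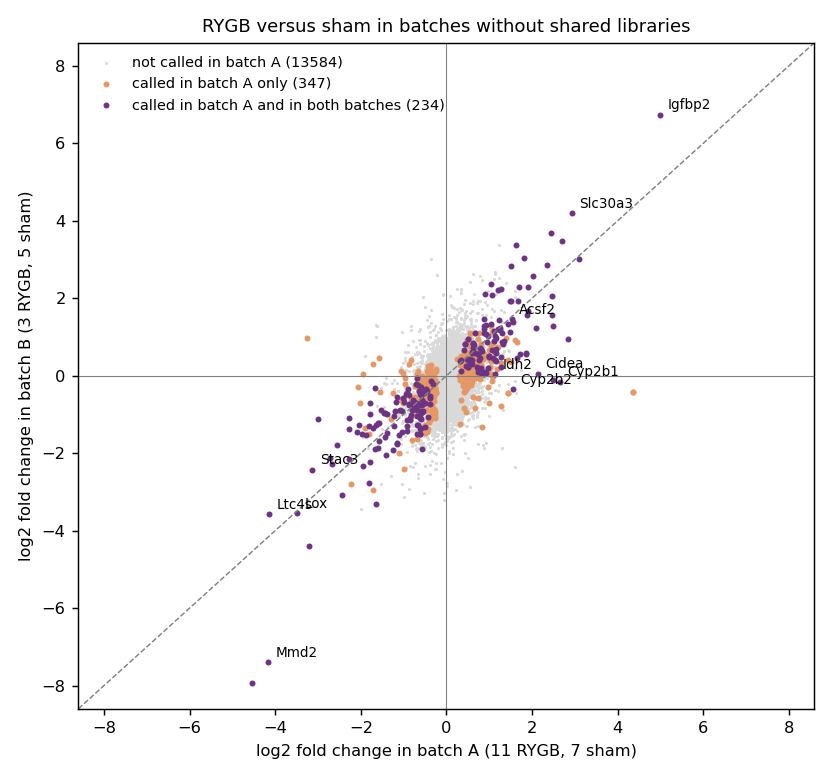
The log2 fold change of each gene in batch A (x axis, 11 RYGB and 7 sham libraries) is plotted against that in batch B (y axis, 3 RYGB and 5 sham libraries), with a dashed line where both are equal. Purple points were called in batch A and in the fit of both batches (234) and orange points in batch A only (347). Cyp2b1, Cyp2b2, Idh2 and Cidea lie near 0 on the y axis.

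For some genes called in the fit of both batches the levels differed mainly within 1 batch, although no difference between the batches passed adjustment over all genes. Cyp2b1 and Cyp2b2, the phenobarbital-inducible P450s controlled by Nr1i3, are shown with the 250 bases before their starts, because similar sequence lets the 2 genes share reads. The stretches are from RefSeq's GRCr8 tables (chr1:90645869-90646118 and chr1:90722031-90722280, both on the plus strand), and capitals mark bases that differ or were left unaligned. In the annotation of the files, on Rnor_6.0, Cyp2b1 is listed on chromosome 7 and Cyp2b2 on chromosome 1.
Cyp2b1: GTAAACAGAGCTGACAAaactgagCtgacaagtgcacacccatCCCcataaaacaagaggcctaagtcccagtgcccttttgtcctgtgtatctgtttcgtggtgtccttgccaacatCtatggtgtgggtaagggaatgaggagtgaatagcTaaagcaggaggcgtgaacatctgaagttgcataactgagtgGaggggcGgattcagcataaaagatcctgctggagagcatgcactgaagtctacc
Cyp2b2: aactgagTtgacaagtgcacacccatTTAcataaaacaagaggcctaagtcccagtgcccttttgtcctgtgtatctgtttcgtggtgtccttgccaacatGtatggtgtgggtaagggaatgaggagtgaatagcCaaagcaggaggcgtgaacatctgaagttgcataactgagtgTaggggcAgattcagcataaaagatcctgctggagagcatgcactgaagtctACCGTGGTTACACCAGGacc
Of 233 aligned bases 225 were identical (96.6%), and 17 bases of each stretch were not aligned. The last bases of Cyp2b1, acc, were aligned with the final acc of Cyp2b2, but they also match the ACC that follows gaagtct there.

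Cyp2b1 was at 22.6 to 151 CPM in the RYGB and at 6.48 to 24.9 CPM in the sham libraries of batch A, but at 6.92 to 8.09 CPM and 4.32 to 13.96 CPM in batch B. In batch A the groups overlapped only slightly, and in batch B the RYGB libraries lay within the sham range. The log2 fold change was 2.66 in batch A (SE 0.46, adjusted p = 0.00327) and -0.15 in batch B (SE 0.36, adjusted p = 0.961), and Cyp2b2 followed with 1.56 (SE 0.32, adjusted p = 0.00977) and -0.35 (SE 0.37, adjusted p = 0.957). For Cyp2b1 the difference between the batches was 2.80 (SE 0.64, unadjusted p = 6.16e-05), which after adjustment over all genes in edgeR gave a p of 0.169, and for Cyp2b2 it was 1.90 (adjusted p = 0.348).

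Idh2, the mitochondrial isocitrate dehydrogenase that yields NADPH, was at 83.4 to 157 CPM in the RYGB and at 41.4 to 62.0 CPM in the sham libraries of batch A, which did not overlap. In batch B its levels were 45.1 to 59.7 CPM and 33.2 to 64.3 CPM, and the RYGB values lay inside the sham range. The log2 fold change was 1.14 in batch A (adjusted p = 0.000124) and 0.04 in batch B, a difference of 1.09 (SE 0.30, adjusted p = 0.375). Cidea, a lipid droplet protein, had values of 2.14 (adjusted p = 0.00784) and 0.05, and its call in both batches was lost without RYGB replicate 5, sham replicate 3 or sham replicate 6 (log2 fold changes down to 1.34).

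For Gys2 and Acss2 the log2 fold changes were higher in batch B. Gys2, the glycogen synthase of liver, was at 68.2 to 180 CPM after RYGB and at 46.6 to 130 CPM after sham surgery in batch A, and at 136 to 246 CPM and 27.1 to 69.2 CPM in batch B, where the groups did not overlap. Its log2 fold change was 0.18 in batch A and 1.75 in batch B, and the difference of -1.59 (SE 0.33) had the lowest adjusted p of that test, 0.154. Acss2, which makes acetyl-CoA from acetate, had log2 fold changes of 0.34 and 1.73 (adjusted p of the difference 0.389). In batch B, Acss2 was at 144 CPM in RYGB replicate 13 and at 38.4 and 19.3 CPM in the other RYGB libraries. The sham libraries of batch B were at 13.7 to 33.0 CPM, so its value there leans on 1 library. In the 1 fit of both batches together Gys2 rose by 0.66 (adjusted p = 0.0324) and Acss2 by 0.76 (adjusted p = 0.0324). These calls were lost in 10 and 7 of the 26 fits without 1 library, with log2 fold changes from 0.53 to 0.76 and from 0.46 to 0.83. For both genes the fit without RYGB replicate 13 was among them.

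Over all genes, 0 of 16508 showed a difference of the RYGB effect between the batches in edgeR, with 933 (5.65%) at an unadjusted p under 0.05 and 0 in limma-voom. Leaving out RYGB replicate 14 gave 15 genes, sham replicate 8 gave 2 and RYGB replicate 13 gave 1. For Acsf2, Stac3, Lox, Apcdd1, Reep6 and Ltc4s the unadjusted p of the difference between batches was between 0.447 and 0.963 in edgeR. Their log2 fold changes in batch B and in batch A were 1.46 and 1.52 for Acsf2, -2.42 and -3.13 for Stac3, -3.56 and -3.49 for Lox, 2.05 and 2.48 for Apcdd1, 2.29 and 1.69 for Reep6, and -3.58 and -4.15 for Ltc4s.

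**Figure D5:**
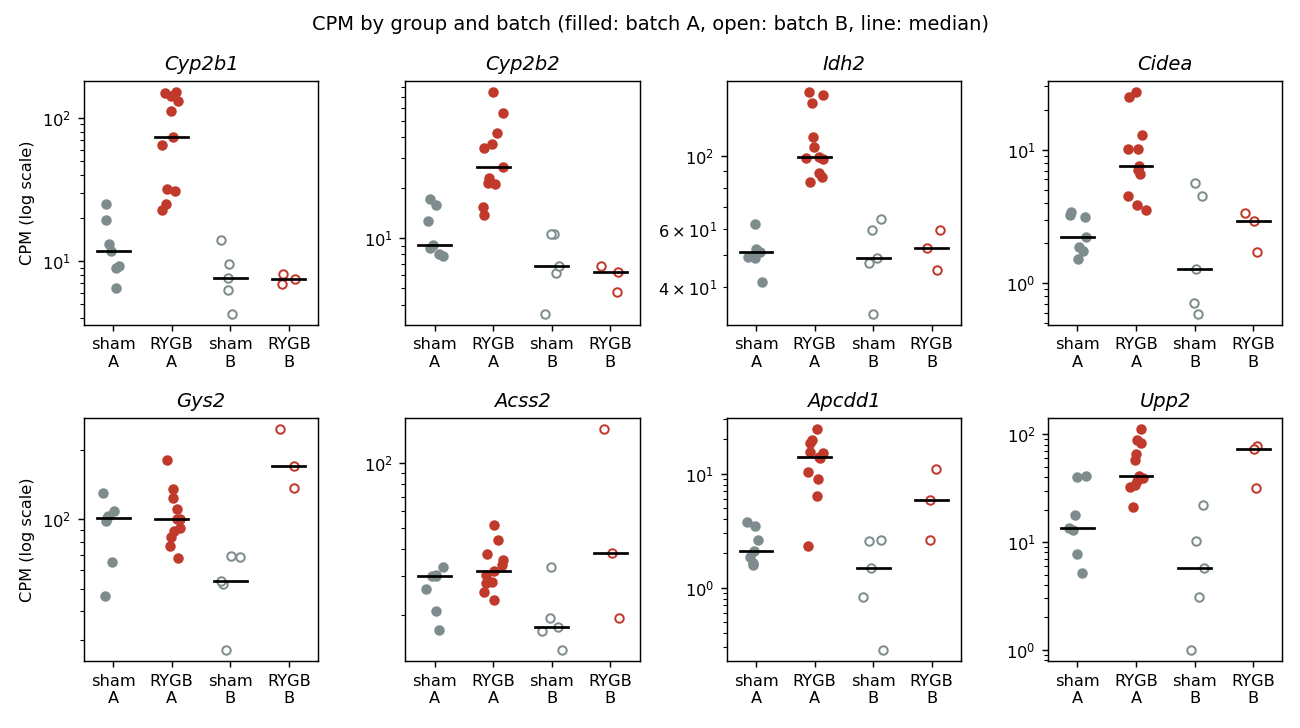
The level of 8 genes in CPM on a log scale is drawn by group and batch, with filled points for batch A, open points for batch B and a line at each median. For Cyp2b1, Cyp2b2, Idh2 and Cidea the RYGB libraries stand above sham in batch A, for Gys2 and Acss2 the medians differ mainly in batch B, and for Apcdd1 and Upp2 the RYGB median is higher in both.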

How the data were processed

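Livers were sequenced after poly(A) selection in stranded libraries. The authors demultiplexed with bcl2fastq 2.20.0.422, trimmed with cutadapt 2.5, aligned with STAR 2.7.2b to Rnor_6.0 and counted per RefSeq gene and strand with featureCounts 1.6.4. The deposited values are estimated counts, not normalized: a read matching several places or genes was divided among them, which left 15.9% of values fractional, and genes with near-identical copies share reads.

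Counts of the 55 libraries of the study's 6 groups were rounded, filtered with filterByExpr (16508 of 38513 genes kept) and scaled by TMM in R 4.3.3 with edgeR 4.0.16. A robust quasi-likelihood model had group and batch as terms, and p-values were adjusted by Benjamini and Hochberg over all genes tested. Batch A and batch B were also fitted alone, and the difference between batches in a model with a mean for each group in each batch. The 14 libraries of the 2 other groups entered 1 alternative only. Nothing says that the 12 replicate numbers which both groups share pair animals: 4 of 12 pairs had a correlation of deviations over 0.1, so no block was used. P-values cover the spread between libraries. Tested on simulated counts, 82% of genes made to differ 2-fold were called in both batches and 88% in batch A, with 2 of 150 and 12 of 178 calls false. At 1.5-fold the shares were 16% and 44%. The simulated spread came from a trend over all genes, with no shift between batches and no library that stands apart. These shares therefore need not hold in the real libraries.

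Members and lists were chosen with earlier results of these data known, and sterol, iron and Ugt1a genes were set aside. Genes named are the 12 largest changes in each direction (average log2 CPM of at least 1), called members of the lists with counter-examples, the 8 lowest p of the difference between batches and the 8 lowest p of genes called in only 1 of the fits; not all are printed, and some are not reported here. Named after their values were seen are Obp3, Mup4, Rup2, Acsm5, Idh2, Gpi, Hsd11b2, Car3, Mcpt2, Mcpt8l2, Mcpt8l3, Mcpt9, Ubd, Fkbp5, Serpina6, Dio1 and Fam35a. Alternatives were DESeq2 1.42.0, limma-voom (limma 3.58.1), other scaling, filtering, rounding and sample choices, the replicate block and leaving out libraries. Promoters are from RefSeq's GRCr8 table, where 79 of the 104 genes named or checked were found by symbol.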

Additional observations from a re-analysis of the deposited data

Results flagged for a closer look

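Among the sham libraries of each batch, 39 lone values were found in 212 groups tested (18.4%). The cutoff gives about 1 in 20 for a single group of normally distributed values. CPM were used without a log scale and need not be so distributed, so that rate may not hold here. The groups hold the same libraries and the genes were chosen for the report, so they are not independent and the share is no test. They are libraries whose gap to the nearest other library was large for the range of the group. The RYGB groups have 11 and 3 libraries and were not tested. What set these values apart was not tested.

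Sham replicate 12 accounts for 14 of them among the 5 sham libraries of batch B. It was high for Igf1 (4302 CPM against 1071 to 1423 CPM in the other 4), Cyp2c12 (165 against 15.9 to 33.0), Acsf2 (15.0 against 4.57 to 6.28), Elovl5 (1184 against 190 to 337), Bdh1 (819 against 513 to 595), Cyp7b1 (135 against 6.78 to 26.8) and Cyp7a1 (125 against 20.5 to 44.7). It was also high for Mgst1 (4578 against 3051 to 3316), Cxcl12 (598 against 190 to 266), Mcpt8l3 (8.21 against 1.78 to 2.78), Agt (2879 against 762 to 1182), Serpina6 (1958 against 671 to 953) and Cdo1 (6169 against 1434 to 2018), and low for Inhbc (45.5 against 124 to 153).

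In batch B, single sham libraries stood above the others for A1bg (0.944 CPM in replicate 8), Cyp4a2 (550 CPM in replicate 11), Acsm2a (38.3 CPM in replicate 9), Fasn (141 CPM in replicate 8), Acss2 (33.0 CPM in replicate 8), Ltc4s (86.4 CPM in replicate 8), Mmp12 (6.29 CPM in replicate 11), Ccl22 (6.33 CPM in replicate 11), Phlda3 (17.8 CPM in replicate 11), Chac1 (13.7 CPM in replicate 10) and Phgdh (3.57 CPM in replicate 11). In batch A the same held for Igfbp2 (6.54 CPM in replicate 7), Cyp2c12 (86.2 CPM in replicate 5), Abcc3 (3.78 CPM in replicate 1), Cyp7a1 (234 CPM in replicate 7), Mgst1 (3716 CPM in replicate 4), Ltc4s (25.4 CPM in replicate 4), Stac3 (394 CPM in replicate 5), Slc34a2 (35.8 CPM in replicate 2), Ccl22 (1.48 CPM in replicate 4), Mcpt10 (1.12 CPM in replicate 2), Chac1 (38.0 CPM in replicate 1) and Apln (2.34 CPM in replicate 5). Values below the others were those of Cyp4a3 (238 CPM in replicate 1) and Cdo1 (1432 CPM in replicate 7).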

How the results depend on the processing

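The count of 408 genes called in both batches was 414 with DESeq2's size factors, 549 in DESeq2, 345 without a filter, 412 without rounding, 407 without robust estimation and 399 without a batch term. It was 526 with only RYGB and sham libraries, of which 324 were shared with the 408, and 520 with all 8 groups, of which 405 were shared. It rose to 1503 in limma-voom and to 735 without 6 libraries that stood apart (sham replicate 12 and 5 of treated groups), of which 403 were shared. It fell to 268 without the 3 RYGB libraries of batch B, a setting chosen after seeing the data, and 236 of these were shared. Leaving out 1 library gave 324 to 449. The 606 genes of batch A became 1059 in DESeq2, 1069 in limma-voom and 189 from the fit of all 55 libraries, and 282 to 755 without 1 library (lowest without sham replicate 5, highest without sham replicate 1). The 0 genes of batch B became 104 in DESeq2, 20 in limma-voom, 1 without a filter and 107 from the fit of 55 libraries, and the 0 of the difference between batches became 0 to 15 without 1 library. The cause of these shifts was not tested.

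Nothing in the labels says that the replicate numbers pair animals. Of 12 shared numbers, 8 had both libraries in the same batch, and 2 had libraries that correlated best with each other. With the replicate block the counts were 246 in both batches (219 shared) and 228 in batch A, where the share of higher genes was 61.0% instead of 48.2%. No such fit was made for batch B.

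Of 86 called genes among those named or checked, all 86 kept direction and call with other size factors, in DESeq2, without rounding, without robust estimation and without the 6 libraries. The call was lost for 3 in limma-voom, 9 without a filter, 6 without a batch term, 5 of 83 with only RYGB and sham libraries, 1 (Ubd) with all 8 groups, 32 with the block and 25 without the 3 RYGB libraries of batch B. Without any one library 60 kept it, and the number lost was at most 12 (sham replicate 5). None of the 86 reversed. A1bg, Apln and Ccl22 did not pass the filter on low counts with only RYGB and sham libraries. Genes not called that changed sign were Cyp7a1 (-0.52 in limma-voom, -0.78 with the block, -0.40 without the 3 libraries, and -0.16 to 0.38 without 1 library), Cyp2c11 (-0.0150 with only RYGB and sham libraries and -0.0205 with the block), G6pc (0.16 with the block) and Cpt1a (-0.119 to 0.0116 without 1 library). In simulated counts of the 8 libraries of batch B, 0% of genes made to differ 2-fold were called, and the parts of depth and of the small number of libraries in that were not tested.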
